A study of Homo sapiens with 12 samples.

Results

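Epigenetic priming without calcipotriol was examined as the difference between MiaPaca2 cells treated with GTA and 5-Aza and MiaPaca2 cells treated with vehicle. MiaPaca2 is an established human pancreatic ductal adenocarcinoma (PDAC) line, so all values come from 1 line and from tumor cells without stroma. Of the 12 RNA-seq libraries, 6 enter this comparison, 3 from control cells that received DMSO (Con) and 3 from cells that received GTA at 2 mM with 5-Aza at 1 µM (GTA+5-Aza, here called primed), all for 24 h. Both agents were given together in every primed culture, so their separate effects cannot be told apart. The other 6 libraries carried the Vitamin D analogue calcipotriol (CPT) at 1 µM, without priming (CPT) or with the same GTA and 5-Aza doses (CPT+GTA+5-Aza), and they serve at the end as a repeat of the priming contrast in libraries of their own. The study's methods speak of 3 independent samples per experiment, and neither they nor the labels say whether these were separate cultures, so the p-values measure the spread between these libraries, which may be technical. Total counts were 19281290, 21224665 and 20917960 in the Con libraries and 18382104, 19705638 and 17527797 in the primed libraries. Levels are given as CPM, counts relative to the TMM-scaled library size, which are not corrected for gene length, so they are compared between groups and never between genes. Genes were tested with the quasi-likelihood method of edgeR, p was adjusted over all tested genes by the Benjamini-Hochberg procedure, and a gene was called at an adjusted p under 0.05. Gene lists are described by how many tested members were called and by their median log2 fold change, to be read against the shares and the median of all tested genes. These shares and medians also varied with the level and GC content of genes, as given further below. The part of level in the values of the lists was not tested. The medians did not move when genes with no Con counts were set to the lowest fold change their counts allow.

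GTA, glyceryl triacetate, is split by cellular esterases into glycerol and acetate, and acetate is turned into acetyl-CoA, the donor that acetyltransferases use to mark histones. Acetylation of lysine 27 on histone H3 accompanies active enhancers and promoters. 5-Aza, 5-Aza-2′-deoxycytidine, is built into DNA during replication and traps DNA methyltransferases, so cytosine methylation is lost as cells divide, and genes kept silent by methylated promoters, such as germline and imprinted genes, are the classical responders. Methylation inside the bodies of transcribed genes is lost as well. The libraries measure RNA only, so neither acetylation nor methylation was read here.

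With TMM scaling priming raised more genes than it lowered, a balance that turned once each library's trend with GC content was removed, and the rises were the larger changes. Of 17123 tested genes, 1703 were higher in GTA+5-Aza, which is 9.95%, and 1290 were lower, which is 7.53%. With a fold change above 1.5 besides, 861 genes (5.03%) were higher and 150 (0.876%) were lower, so 85.2% of these larger changes were rises. The imbalance grew with the size of the change, with 450 rises against 47 falls beyond 2-fold, 146 against 14 beyond 4-fold and 71 against 3 beyond 8-fold, in fitted values that depend on the prior count for genes at 0 counts in Con. The 3 primed and 3 Con libraries did not overlap for 1652 of the 1703 higher genes and for 1257 of the 1290 lower genes. The call itself favours separated groups, and the share over all tested genes is not given here, so these counts are no further support. Most falls were small. The median log2 fold change was 0.59 among the higher genes, -0.32 among the lower genes and 0.007 over all tested genes, with an interquartile range of -0.17 to 0.25. The share of rises among all calls was 56.9%, against 68.9% with library-size scaling and 48.5% without the GC trend, while the share among changes above 1.5-fold was 89.3% and 80.9% under the same settings.

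**Figure D1:**
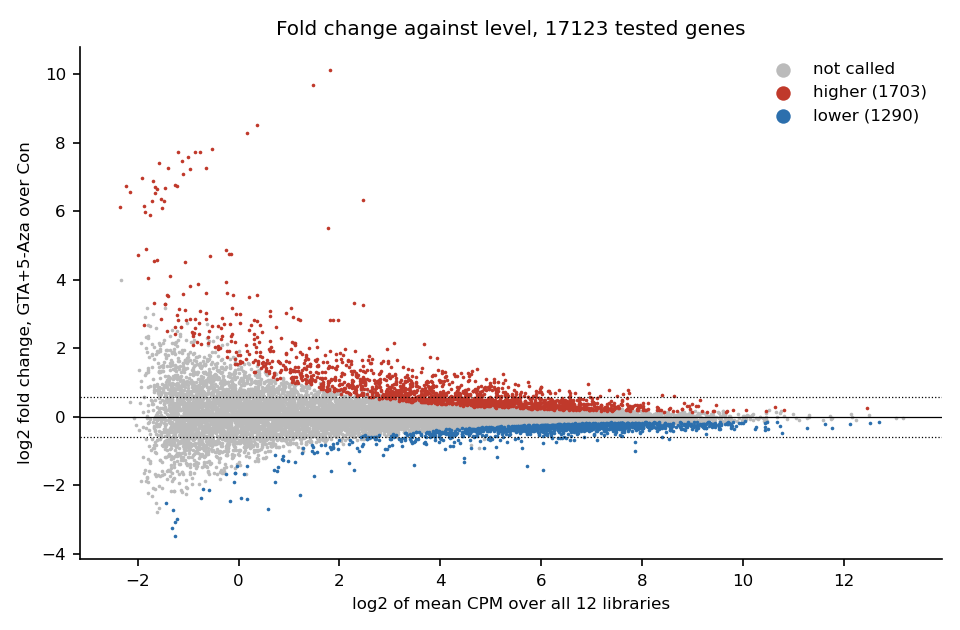
Log2 fold change of GTA+5-Aza over Con (vertical axis) against the log2 of the mean CPM over all 12 libraries (horizontal axis) for 17123 genes, with 1703 higher genes in red, 1290 lower genes in blue and dotted lines at a 1.5-fold change. The large rises lie at low levels and the lower genes lie mostly at high levels with small changes. Fold changes of genes at 0 counts in every Con library depend on the prior count of the fit.

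A small set of genes went from silence to expression. A gene was counted as turned on when no Con library held more than 3 of its counts and every primed library held at least 20, and 8 genes met this rule, 6 protein-coding genes and 2 lncRNA genes of the X chromosome that are not described here. No gene met the reverse rule. SVIP (ENSG00000198168, chromosome 11 from 22813799 to 22830299 in GRCh38), whose small protein binds the p97 ATPase and inhibits the degradation of endoplasmic reticulum proteins, had 0 counts in all 3 Con libraries and 7.64, 7.31 and 7.17 CPM in the primed libraries, at least 49.5-fold higher than the level of 3 counts that a count of 0 allows per library. TKTL1 (ENSG00000007350, X chromosome from 154295795 to 154330350), a transketolase-like gene of the testis, had 0 counts in every Con library and 2.24, 1.7 and 2.31 CPM after priming, at least 14-fold higher. The primed level of both genes varied little between libraries. ID4 (ENSG00000172201, chromosome 6 from 19837370 to 19842197), an inhibitor of DNA binding that blocks helix-loop-helix factors, had 3, 0 and 1 counts in Con and 42, 26 and 41 counts in the primed libraries. CACNA1H, the T-type calcium channel subunit on chromosome 16 from 1153106 to 1221771, reached 1.12, 1.15 and 2.2 CPM from 0 counts, at least 10.0-fold higher. ADAMTS1, a secreted metalloprotease on chromosome 21 from 26835755 to 26845409, and PNMA5, a paraneoplastic antigen family gene on the X chromosome from 152988824 to 152994116, likewise started from 0 counts, with 1.34, 1.1 and 1.81 CPM for ADAMTS1 and 1.55, 1.5 and 1.19 CPM for PNMA5, at least 9.5-fold and 9.49-fold higher. All 8 genes also had at most 3 counts in each CPT library, and 4 of the 8 had at least 20 counts in each CPT+GTA+5-Aza library.

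The promoters of these genes are shown because 5-Aza acts on cytosines of CpG dinucleotides. Entries existed for SVIP, TKTL1, ID4 and PNMA5 in the RefSeq promoter table on GRCh38.p14, which gives 250 bases before and 50 after the first listed start, and each CpG is in capitals. The windows are chr11:22829330-22829629 on the minus strand for SVIP, chrX:154295545-154295844 on the plus strand for TKTL1, chr6:19837120-19837419 on the plus strand for ID4 and chrX:152994067-152994366 on the minus strand for PNMA5.
SVIP: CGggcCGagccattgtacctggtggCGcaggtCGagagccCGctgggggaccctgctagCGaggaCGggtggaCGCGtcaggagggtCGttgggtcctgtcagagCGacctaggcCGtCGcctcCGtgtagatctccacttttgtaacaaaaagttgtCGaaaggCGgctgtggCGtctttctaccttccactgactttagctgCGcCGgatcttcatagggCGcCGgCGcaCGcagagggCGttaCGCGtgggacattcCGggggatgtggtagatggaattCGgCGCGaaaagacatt
TKTL1: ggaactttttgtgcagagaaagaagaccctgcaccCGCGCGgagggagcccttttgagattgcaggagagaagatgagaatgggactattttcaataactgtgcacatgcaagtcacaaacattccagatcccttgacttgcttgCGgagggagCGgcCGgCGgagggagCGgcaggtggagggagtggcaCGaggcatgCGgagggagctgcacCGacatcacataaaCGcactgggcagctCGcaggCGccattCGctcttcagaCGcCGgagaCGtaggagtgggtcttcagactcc
ID4: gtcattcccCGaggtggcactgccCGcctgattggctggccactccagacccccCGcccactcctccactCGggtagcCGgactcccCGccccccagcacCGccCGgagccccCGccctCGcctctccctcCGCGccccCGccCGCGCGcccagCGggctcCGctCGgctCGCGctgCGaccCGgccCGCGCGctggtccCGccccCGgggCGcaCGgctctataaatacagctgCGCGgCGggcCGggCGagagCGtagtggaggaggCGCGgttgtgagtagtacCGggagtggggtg
PNMA5: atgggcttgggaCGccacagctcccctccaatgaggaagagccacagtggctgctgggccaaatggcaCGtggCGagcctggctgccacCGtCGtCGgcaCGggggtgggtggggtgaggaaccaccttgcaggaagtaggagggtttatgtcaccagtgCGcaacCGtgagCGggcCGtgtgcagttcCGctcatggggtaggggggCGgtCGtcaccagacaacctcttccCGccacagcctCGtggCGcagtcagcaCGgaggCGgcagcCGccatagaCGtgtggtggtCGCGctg
These windows held 30 CpG in SVIP, 18 in TKTL1, 39 in ID4 and 23 in PNMA5. Over the promoters of 11048 tested genes the median was 26 and 99.5% held at least 1. As many CpG as in SVIP were found in 39.0% of these promoters, as many as in TKTL1 in 75.5%, as many as in ID4 in 15.2% and as many as in PNMA5 in 62.0%, so the 4 windows span the ordinary range.

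Among the genes with the smallest p, the rises mixed silent genes and genes already well expressed. PTX3 (ENSG00000163661), the secreted pentraxin 3 of the innate response, had 154, 153 and 149 CPM in Con and 269, 260 and 262 CPM after priming, a log2 fold change of 0.79 (SE 0.05, adjusted p = 2.19e-10 in edgeR's test). DHRS2 (ENSG00000100867), a short-chain dehydrogenase known to respond to histone deacetylase inhibitors, went from 5.21, 4.43 and 4.76 CPM to 19, 19.2 and 24.2 CPM, a log2 fold change of 2.12 (SE 0.15, adjusted p = 4.4e-10). COL6A3 (ENSG00000163359), a chain of collagen VI, rose from 81.0, 82.5 and 87.0 CPM to 161, 157 and 166 CPM, a log2 fold change of 0.95 (SE 0.07, adjusted p = 5.65e-10). TWIST1, the helix-loop-helix factor on chromosome 7 from 19020991 to 19117636, had 0, 0.381 and 0 CPM in Con and 12.3, 7.96 and 13.3 CPM in the primed libraries (adjusted p = 8.91e-10). SFRP1, a secreted WNT antagonist, rose from 1.42, 0.905 and 0.729 CPM to 11.2, 9.42 and 8.92 CPM, a log2 fold change of 3.28 (SE 0.25). The others with the smallest p were TP53I11, a p53-inducible gene (log2 fold change 1.73), CACNG6, a calcium channel subunit (1.41), the lncRNA UCA1 (0.64), the membrane protein gene EMP1 (0.60) and the RNA-binding protein gene CAPRIN2 (0.70), with 1 lncRNA left undescribed. Among the rises above 1.5-fold with the highest counts, SEMA6B (0.67) and MAGED1 (0.61) joined PTX3, EMP1, UCA1 and CAPRIN2.

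The lower genes with the smallest p had varied roles. RPTOR (ENSG00000141564, chromosome 17 from 80544819 to 80966371), the raptor subunit through which mTORC1 recognises its substrates, had 74.1, 80.8 and 74.0 CPM in Con and 26.9, 27.5 and 30.4 CPM in the primed libraries, a log2 fold change of -1.43 (SE 0.09, adjusted p = 1.27e-10 in edgeR's test). POLR1F (ENSG00000105849, chromosome 7 from 19695461 to 19709037), a subunit of RNA polymerase I, which transcribes ribosomal RNA, fell from 331, 309 and 329 CPM to 165, 162 and 155 CPM, a log2 fold change of -1.01 (SE 0.07, adjusted p = 2.19e-10). HDAC4 (ENSG00000068024, chromosome 2 from 239048168 to 239401654), a class IIa histone deacetylase, fell from 45.1, 48.6 and 48.0 CPM to 17.6, 24.0 and 21.1 CPM, a log2 fold change of -1.18 (SE 0.11, adjusted p = 4.59e-08). The rule that chose these genes asked for groups that do not overlap. PRDM16 (chromosome 1 from 3069168 to 3438621), a zinc finger regulator of lineage choice, fell from 30.9, 31.2 and 32.8 CPM to 11.4, 12.9 and 13.5 CPM, a log2 fold change of -1.33. The granin SCG2 (-0.74), the Eph receptor EPHA4 (-0.69), the spindle checkpoint protein MAD1L1 (-0.91), the homeodomain protein CUX1 (-0.67), the guidance ligand SEMA3A (-0.64), the Rac exchange factor DOCK1 (-0.74), the inositol phosphatase INPP5A (-0.91) and the glycogen branching enzyme GBE1 (-0.62) complete the set, all given as log2 fold changes. NUCB2, a calcium-binding precursor of nesfatin, fell from 131, 117 and 120 CPM to 79.8, 81.3 and 70.2 CPM and belonged to the falls above 1.5-fold with the highest counts.

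**Figure D2:**
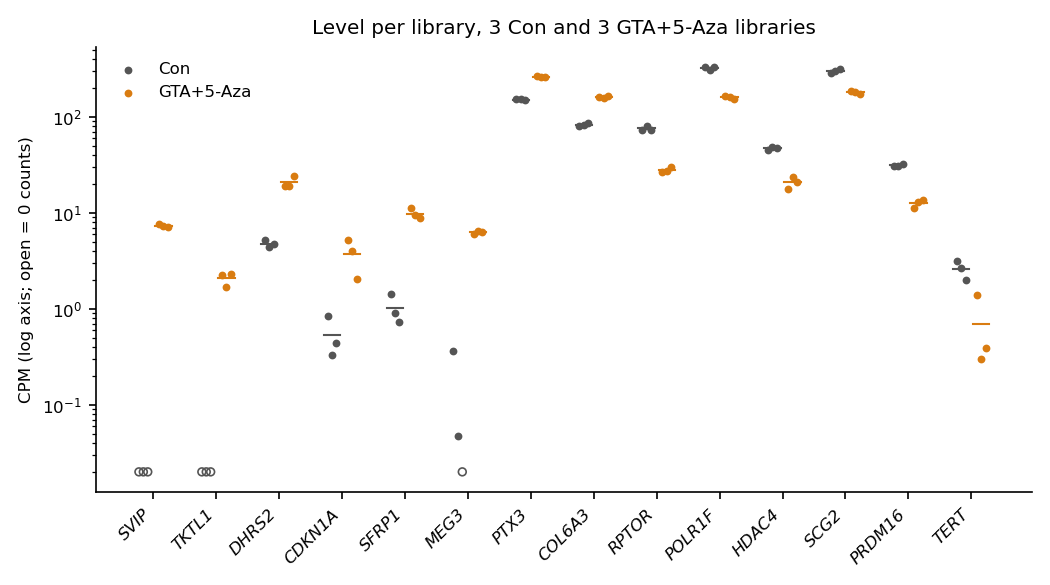
CPM of 14 genes in each of the 3 Con libraries (grey) and 3 GTA+5-Aza libraries (orange) on a log axis, with open circles for 0 counts and a line at the mean of each group without such a library. The groups are separate for every gene shown, with 8 genes from SVIP to COL6A3 higher and 6 genes from RPTOR to TERT lower after priming.

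Lists of the machinery that the 2 agents act on had small medians. Their shares of rises lay above the 9.95% of all genes, but these shares rest on few genes. Among protein-coding genes 12.3% rose, more than the 11.1% of the deacetylase list. Of 19 tested genes that write, erase or read DNA methylation, 3 rose (15.8%) and 0 fell, with a median of 0.04. DNMT3B, a de novo methyltransferase, went from 26.0, 24.6 and 27.2 CPM to 39.4, 34.9 and 35.1 CPM (log2 fold change 0.49, adjusted p = 0.00146 in edgeR's test), and ZBTB33, a reader of methylated DNA, and GADD45A rose by 0.41 and 0.46 on the log2 scale. DNMT1, the maintenance methyltransferase and main target of 5-Aza, had 460 ± 15.4 CPM in Con and 444 ± 6.25 CPM after priming (SD, n = 3, adjusted p = 0.569), and DNMT3A had 12.1 ± 3.21 and 13.8 ± 2.37 CPM (adjusted p = 0.602). Of 18 histone deacetylases and sirtuins, 2 rose and 2 fell (11.1% each), with a median of 0.03 and the class IIa members moving apart. HDAC7 rose from 23.7, 36.2 and 27.9 CPM to 43.4, 50.3 and 51.8 CPM and HDAC5 by 0.70 on the log2 scale, against the fall of HDAC4 and a fall of 0.30 in SIRT1. Of 20 genes for acetate use and histone acetylation, 5 rose and 1 fell, against 4 and 3 with the GC trend removed. The list's median was -0.023. ACSS1 and ACSS2, the mitochondrial and the nuclear-cytosolic enzymes that turn acetate into acetyl-CoA, rose by 0.70 and 0.47 on the log2 scale, SLC16A3, SLC25A1 and BRD3 by 0.41, 0.30 and 0.31, and ACLY, which makes acetyl-CoA from citrate, fell by 0.14. The acetyltransferase genes EP300 and CREBBP did not pass, at log2 fold changes of -0.13 and -0.20 with adjusted p of 0.179 and 0.0507. Of 27 Polycomb and H3K27 demethylase genes 6 rose (22.2%) and 4 fell (14.8%), with a median of 0.07, against 3 and 3 with the GC trend removed. BMI1 went from 6.47, 4.1 and 4.62 CPM to 13.3, 11.3 and 8.98 CPM (log2 fold change 1.15) and CBX6 rose by 0.46. PHF19, PCGF3, PCGF1 and PHC3 fell by 0.38, 0.38, 0.47 and 0.23. EZH2, the H3K27 methyltransferase, had a log2 fold change of -0.08 (adjusted p = 0.45).

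Few histone genes were called. Of 35 replication-dependent histone genes 19 were tested and 1 fell, H2AC11 (5.26%, below the 7.53% of all genes), from 3.94, 3.24 and 4.23 CPM to 0.695, 0.501 and 1.13 CPM (adjusted p = 9.2e-05 in edgeR's test). The list's median log2 fold change was -0.60 and 18 of the 19 had a negative value, and its summed level was 40.5 to 47.8 CPM in the Con libraries and 30.5 to 32 CPM in the primed ones. Most transcripts of these genes carry no poly(A) tail, and the sources used here do not say how RNA was selected. Of 12 replication-independent and variant histone genes 2 rose and 1 fell, with a median of 0.06. H2AX and the linker histone gene H1-10 rose by 0.35 and 0.56 on the log2 scale and H3-3B, a replacement H3 gene, fell by 0.32.

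A few genes restricted to the germline rose, most of them to low levels. Among the germline and cancer-testis genes listed, 56 had 0 counts in all 6 libraries and 22 passed the filter on low counts, 8 of them with 0 counts in every Con library. These 8 entered the test through the primed libraries, so the number called is no support for a direction. The 13 called genes were all higher. DAZL, an RNA-binding protein of germ cells, had 2.19, 0.601 and 0.565 CPM after priming, SSX3 had 1.18, 0.751 and 1.07 CPM, SSX1 0.641, 0.601 and 1.24 CPM, MAGEB2 1.18, 0.551 and 0.339 CPM, TDRD9 0.908, 0.451 and 0.621 CPM and CTCFL 0.801, 0.351 and 0.395 CPM, each from 0 counts in Con. These levels rest on few reads and differ severalfold between libraries for some genes, and reads of SSX1 and SSX3 may be shared between near-identical copies. PRAME was already expressed and rose from 33.8, 33.3 and 34.2 CPM to 51.6, 50.8 and 51.1 CPM (log2 fold change 0.60, adjusted p = 3.04e-05 in edgeR's test). SYCP3, NANOS1 and the testis tubulin genes TUBA3E and TUBA3D were also called, and counts of the tubulin pair are uncertain because the pair is near-identical. Many classical cancer-testis genes stayed silent, with 0 counts in every Con and primed library for CTAG1B and a single primed library with a read for MAGEA4.

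Imprinted genes, expressed from 1 parental copy, were mixed, with 7 of 34 higher, 4 lower and a median of 0.13. MEG3, the lncRNA of the DLK1 domain on chromosome 14 from 100779410 to 100861031, went from 0.368, 0.0477 and 0 CPM to 6.09, 6.46 and 6.38 CPM (adjusted p = 1.9e-07 in edgeR's test). RTL1 of the same domain rose from 0.473, 0.381 and 0.632 CPM to 2.14, 2.55 and 1.92 CPM, but it overlaps antisense transcripts of that domain and the strand setting of the counting was not stated, so its reads cannot be assigned. NLRP2 had 0 counts in Con and 2.99, 0.801 and 0.395 CPM after priming, H19 rose from 19.4, 24.2 and 21.3 CPM to 37.0, 32.9 and 36.5 CPM, and PHLDA2, SLC22A18 and ERAP2 rose by 0.81, 0.65 and 0.62 on the log2 scale. The 4 lower genes were TRAPPC9 at -0.76, RB1 at -0.50, UBE3A at -0.28 and NAP1L4 at -0.18.

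Among lists of genes of other tissues most tested members were not called, and the calls were mainly rises. Of 81 neuronal and neuroendocrine genes 30 were tested, 8 rose and 3 fell, with a median of 0.35. ENO2, the neuronal enolase, rose from 32.6, 34.5 and 35.0 CPM to 67.0, 70.5 and 69.9 CPM, RAB3B from 1.74, 1.81 and 2.33 CPM to 8.82, 5.91 and 6.83 CPM, and SYT7, a synaptotagmin of vesicle release, by 1.24 on the log2 scale, while SCG2, MAP2 and REST, the repressor of neuronal genes, fell by 0.74, 0.38 and 0.26. Of 12 tested muscle contractile genes 2 rose, CNN3, a calponin, from 0.894, 1.0 and 0.875 CPM to 9.56, 9.42 and 9.03 CPM, and TNNT1, slow troponin T, by 0.85 on the log2 scale, against a list median of 0.12. Of 12 tested blood lineage genes 2 rose, CORO1A at 1.36 and RAC2 at 1.63, against a median of 0.21. Of 16 HOX genes 1 rose, HOXC6 at 0.95 against a median of 0.06, and of 16 clustered protocadherins 1 rose, PCDHGA12, which had 0, 0 and 0.194 CPM in Con and 0.748, 1.35 and 0.508 CPM after priming, against a median of 0.40. All protein-coding genes under 1 CPM had a median of 0.40 as well. None of the 369 olfactory receptor genes had enough counts for the test, with 347 of them at 0 in all 6 libraries. The 208 zinc finger genes tested on chromosome 19, many of which repress retroelements, had 15 higher, 1 lower and a median of 0.11, and ZNF677 had 0 counts in Con and 0.641, 0.751 and 0.734 CPM after priming. The 214 zinc finger genes elsewhere had 15 higher, 9 lower and a median of 0.024, with ZNF385A and ZNF219 at 1.00 and 0.82 and ZNF407 and ZNF217 at -0.59 and -0.27. The shares of higher members of both zinc finger lists, 7.21% and 7.01%, were below the 9.95% of all genes.

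Pancreatic and subtype genes ranged from silent to well expressed. None of the 24 classical PDAC subtype genes passed the filter, and 13 of them had 0 counts in all 6 libraries. Of 51 pancreatic exocrine and endocrine genes 12 were tested and 4 rose, with a median of 0.18, the ductal genes SOX9 (from 174, 163 and 165 CPM to 214, 214 and 225 CPM), ONECUT2 and KRT19 at log2 fold changes of 0.46 and 0.27, and NR5A2, a nuclear receptor of acinar cells, which had 0 counts in Con and 0.641, 0.351 and 0.395 CPM after priming. Of 25 basal-like PDAC genes 9 were tested, 6 rose and 1 fell, with a median of 0.72. TNS4, a focal adhesion protein, rose from 0.421, 0.381 and 0.827 CPM to 3.1, 4.06 and 4.86 CPM, KRT7 from 0.21, 0.715 and 0.243 CPM to 2.08, 1.2 and 2.77 CPM, and CTSV, AREG, S100A2 and UCA1 by 0.72, 0.85, 1.25 and 0.64 on the log2 scale, while KRT15 fell by 0.83. Of 10 tested keratin genes, with a median of 0.22, 3 rose and 2 fell, KRT81 at 1.69 besides KRT7 and KRT19, and KRT80 at -0.22 besides KRT15. KRT19 kept its sign but was no longer called once the GC trend was removed.

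The labelled cell type was checked on marker genes, and in bulk RNA fewer cells of a type and less RNA per cell cannot be told apart. Of 10 epithelial markers KRT8 and KRT18 were abundant, with 1540 ± 54.8 and 732 ± 41.4 CPM in Con (SD, n = 3), whereas EPCAM and CDH1 were at or near 0 and ESRP1 was at 0 in all 6 libraries, so 5 were tested, 3 were higher, and the summed level was 2250 to 2410 CPM in Con and 2470 to 2650 CPM after priming. Of 10 fibroblast markers 4 were tested and 3 were higher, COL1A1, COL3A1 and COL1A2, with LUM and FAP at 0 and a summed level of 880 to 933 CPM against 989 to 1070 CPM. Of 9 endothelial markers 2 were higher, EGFL7 and ESAM, with PECAM1, CDH5, KDR, TEK and ERG at 0 in all 6 libraries and sums of 42.8 to 47.3 against 62.7 to 76.6 CPM. Leukocyte markers summed to 2.58 to 3.4 CPM in Con and 3.06 to 4.22 CPM after priming with 0 called, and 9 of the 10 acinar and islet markers were at 0 in all 6 libraries.

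Genes that restrain or drive the cell cycle moved in both directions. Of 28 cyclin, cyclin-dependent kinase inhibitor and RB family genes 7 rose and 6 fell, with a median of 0.02. CDKN1A, the p21 inhibitor, was expressed at 0.841, 0.334 and 0.438 CPM in Con and at 5.29, 4.01 and 2.03 CPM after priming, and SFN, the 14-3-3 sigma gene, at 0.526, 0.524 and 0.194 CPM against 3.63, 3.56 and 2.54 CPM (adjusted p = 0.000877 in edgeR's test). Against these rises from low levels, CDKN1B, the p27 inhibitor, fell from 65.1, 55.9 and 64.1 CPM to 44.2, 43.5 and 46.4 CPM, RB1 from 93.9, 74.6 and 88.7 CPM to 61, 61.2 and 60.1 CPM, and the mitotic cyclin CCNB1 from 428, 424 and 415 CPM to 319, 333 and 313 CPM. Mitosis genes were lower as a list, with 20 of 59 lower (33.9%, against 7.53% of all genes), 4 higher and a median of -0.14. With the GC trend removed 22 were lower and 2 higher. The list is abundant, with a summed level of 12500 to 13000 CPM in Con, and falls were more frequent among abundant genes. In the most abundant level class of protein-coding genes 28.5% were lower, and in the class next below 20.1%. The part of level in the mitosis share was not tested. TPX2, a spindle assembly factor, fell from 604, 569 and 618 CPM to 458, 463 and 463 CPM, and the kinases PLK1 and AURKA and the cytokinesis protein ANLN fell by 0.37, 0.34 and 0.35 on the log2 scale. The 4 higher mitosis genes were SPC24 at 0.34, UBE2C at 0.25, AURKB at 0.23 and MYBL2 at 0.16. MKI67, the proliferation antigen, had 1060 ± 40.9 CPM in Con and 1080 ± 27.8 CPM after priming (adjusted p = 0.755).

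Replication and repair genes showed few calls. Of 43 DNA replication genes 2 rose, CDT1 at 0.34 and POLD1 at 0.29, neither of which was called with the GC trend removed, and 4 fell, GINS4, ORC3, POLA1 and MCM5 at -0.28, -0.33, -0.24 and -0.21, while the list's median was 0.028. Of 65 DNA repair genes 2 rose, ERCC1 at 0.38 and EXO1 at 0.27, and 3 fell, XRCC6, MGMT and PRKDC at -0.24, -0.36 and -0.15, with a split of 3 to 1 under library-size scaling and a median of -0.003. Of 33 p53 target genes 6 rose and 4 fell, with a median of 0.18. TP53I11 went from 7.63, 6.91 and 7.97 CPM to 26.6, 22.0 and 25.9 CPM, while PLK2, a kinase, fell from 686, 688 and 672 CPM to 559, 550 and 527 CPM, and ASCC3 and PPM1D had log2 fold changes of -0.50 and -0.34. Of 18 telomere genes 4 fell and 0 rose, with a median of -0.03. TERT, the catalytic subunit of telomerase, fell from 3.16, 2.67 and 1.99 CPM to 1.39, 0.301 and 0.395 CPM (log2 fold change -1.90, SE 0.48, adjusted p = 0.00591 in edgeR's test), and GAR1, ATRX and DKC1 fell by 0.54, 0.29 and 0.18.

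The list with the largest share of falls was ribosome production. Of 58 tested ribosome biogenesis and RNA polymerase I genes 28 were lower, which is 48.3% against 7.53% of all genes, and 0 were higher. Among the most abundant protein-coding genes 28.5% were lower. The median log2 fold change was -0.20, and the summed level of the list was 11400 to 11500 CPM in Con and 9070 to 9500 CPM after priming. With the GC trend removed 36 were lower and 0 higher, and in CPT+GTA+5-Aza against CPT 25 were lower and 0 higher. Besides POLR1F, the nucleolar helicase DDX21 fell from 727, 702 and 711 CPM to 496, 527 and 475 CPM (adjusted p = 1.59e-07 in edgeR's test), nucleophosmin NPM1 from 2020, 2010 and 2090 CPM to 1460, 1580 and 1370 CPM, and nucleolin NCL from 1610, 1590 and 1660 CPM to 1270, 1300 and 1200 CPM. UTP20, of the small-subunit processome, fell by 0.54 on the log2 scale. POLR1F was the one member that fell beyond 1.5-fold, 49 of the 58 had a negative fold change, and 28 passed the test.

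Lists of protein and RNA turnover differed in their share of falls. Proteasome subunits were lower in 12 of 36 cases (33.3%) and higher in 1, with a median of -0.16. PSMD5, PSMD6, PSMD11 and PSMB2 fell by 0.34, 0.32, 0.29 and 0.25 on the log2 scale, whereas PSMB9, the immunoproteasome subunit, rose from 1.74, 1.62 and 0.729 CPM to 2.99, 2.95 and 3.27 CPM. Of 55 spliceosome genes 11 fell and 0 rose, with a median of -0.09, among them PRPF8, EFTUD2 and SF3A3 at -0.22, -0.25 and -0.24. In the level class next below the most abundant protein-coding genes 20.1% fell, a share that the spliceosome list did not exceed. The part of level in the proteasome and spliceosome shares was not tested. Of 37 aminoacyl-tRNA synthetases 6 fell, with WARS1, KARS1 and FARS2 at -0.39, -0.25 and -0.65, and 2 rose, AARS2 at 0.56 and AARS1 at 0.19, against a median of -0.09. Of 82 cytosolic ribosomal protein genes 8 fell (9.76%, near the 7.53% of all genes and below the 28.5% of the most abundant protein-coding genes), led by RPL23 at -0.31, RPS7 at -0.22 and RPS13 at -0.24, and 1 rose, RPL13 at 0.21, against a median of -0.05. RPS24 fell by 0.25 with overlapping libraries, and pseudogene copies can share reads with this family. Lysosome and autophagy genes moved both ways, with 10 of 53 higher (18.9%), 6 lower (11.3%) and a median of 0.08, or 0.02 with the GC trend removed. GABARAPL1, an autophagosome protein, rose from 3.84, 5.53 and 5.2 CPM to 11.7, 12.2 and 9.32 CPM, and CTSL, GUSB and CTSC, lysosomal hydrolases, by 0.60, 0.31 and 0.30 on the log2 scale.

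**Figure D3:**
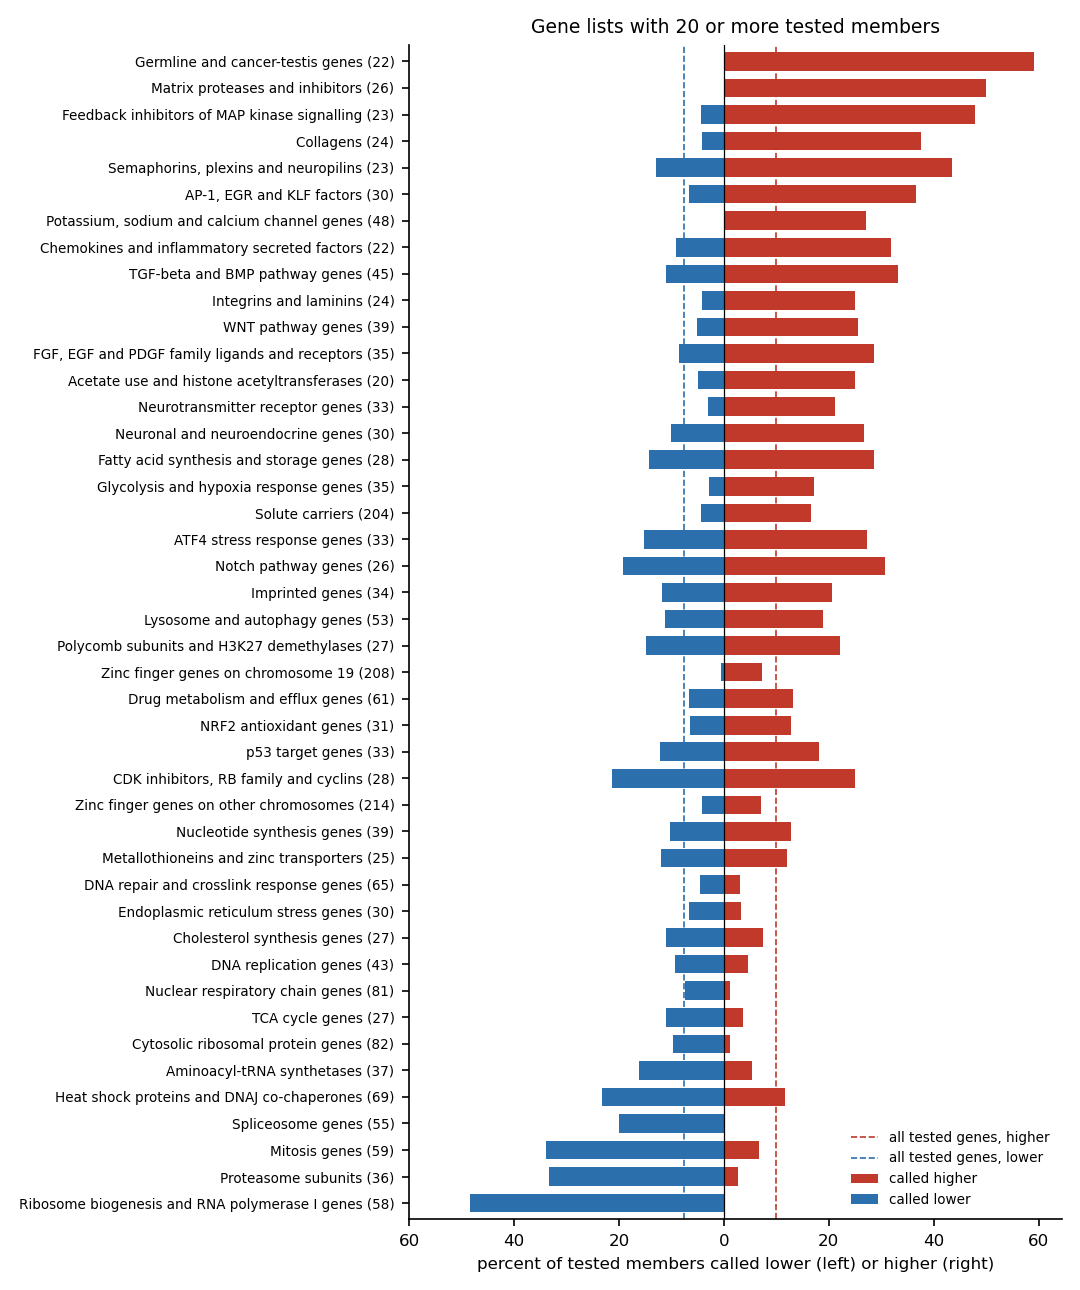
Percent of tested members called higher (red, right) and lower (blue, left) in GTA+5-Aza against Con for the gene lists with 20 or more tested members, with the number tested in parentheses and dashed lines at the 9.95% and 7.53% of all tested genes. Ribosome biogenesis, proteasome and mitosis genes extend furthest to the left, and matrix proteases, feedback inhibitors and semaphorins extend far to the right. Of the 22 tested germline genes 8 had 0 counts in every Con library and passed the filter through the primed libraries.

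Stress response genes did not move as blocks. Of 33 ATF4 target genes 9 rose and 5 fell, against 8 and 7 with the GC trend removed, and the median was 0.033. PHGDH, the first enzyme of serine synthesis, rose from 10.5, 10.4 and 14.1 CPM to 21.3, 24.0 and 26.4 CPM, ALDH1L2 from 1.95, 1.91 and 2.33 CPM to 5.61, 7.11 and 6.55 CPM, and asparagine synthetase ASNS by 0.60 on the log2 scale, while the cystine transporter SLC7A11 fell from 117, 107 and 114 CPM to 69.0, 78.1 and 71.0 CPM. ATF4 itself had 110 ± 13.5 and 118 ± 5.19 CPM (adjusted p = 0.442 in edgeR's test) and DDIT3 8.14 ± 1.51 and 6.45 ± 0.675 CPM (adjusted p = 0.219). Of 30 endoplasmic reticulum stress genes SVIP alone rose, and CANX and HSPA5 fell by 0.27 and 0.21, against a median of 0.036. Of 69 heat shock and DNAJ genes 8 rose and 16 fell with a median of -0.058. The abundant chaperones fell, HSP90AB1 by 0.33, HSPD1 by 0.39, HSPA8 by 0.34 and HSPH1 by 0.44 on the log2 scale, while HSPA2, an HSP70 of the testis, rose from 5.1, 5.1 and 10.0 CPM to 24.6, 23.1 and 20.9 CPM (adjusted p = 4.66e-07). HSPA6 was also called, at 0.0526, 0 and 0 CPM in Con and 0.748, 0.651 and 0.677 CPM after priming, but it shares most of its sequence with other HSP70 genes and its counts are uncertain.

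Antioxidant and metal genes were mixed. Of 31 NRF2 target genes 4 rose, CBR1 at 0.51, CBR3 at 0.50, the ferritin light chain FTL at 0.28 and NQO1 at 0.14, and 2 fell, SLC7A11 and TKT, against a median of 0.06. Of 25 metallothionein and zinc transporter genes 3 rose and 3 fell, with a median of 0.06. The zinc exporter SLC30A3 rose from 5.26, 5.43 and 5.83 CPM to 12.9, 11.2 and 15.4 CPM and the importers SLC39A1 and SLC39A4 by 0.46 and 0.44 on the log2 scale, while SLC30A6, SLC39A11 and the metallothionein MT1E fell by 0.32, 0.65 and 0.23.

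Metabolic lists showed single genes that stood out. Of 27 cholesterol synthesis genes 2 rose and 3 fell with a median of 0.041. TM7SF2, a sterol reductase, rose from 14.4, 14.4 and 14.7 CPM to 33.3, 32 and 38.3 CPM (adjusted p = 7.09e-07 in edgeR's test), while LSS, INSIG1 and LBR fell by 0.28, 0.40 and 0.26. Of 28 fatty acid synthesis and storage genes 8 rose and 4 fell, with a median of 0.15, the desaturase FADS1 at 0.55, the carbohydrate-response factor MLXIPL at 0.88, the triglyceride enzyme DGAT1 at 0.58, the elongase ELOVL5 at -0.29 and the synthase FASN at -0.27. Of 35 glycolysis and hypoxia genes 6 rose and 1 fell, against 5 and 4 with the GC trend removed, and the median was 0.08. The glucose transporter SLC2A3 rose from 6.21, 8.15 and 5.54 CPM to 17.4, 13 and 11.8 CPM, the aldolase ALDOC by 1.20 and the prolyl hydroxylase P4HA2 by 0.47 on the log2 scale, and HIF1A fell by 0.28. Of 27 TCA cycle genes 3 fell, CS at -0.22, ME2 at -0.30 and DLD at -0.24, and 1 rose, IDH2 at 0.23, which was not called with the GC trend removed, and the median was -0.08. Of 81 nuclear respiratory chain genes 6 fell, with UQCRFS1, ATP5MK and UQCRC2 at -0.28, -0.34 and -0.22, the last not called with the GC trend removed, and 1 rose, ATP5F1D at 0.40, against a median of -0.03. Of the 13 protein genes of the mitochondrial genome MT-ND6 rose by 0.23 and MT-ND2 fell by 0.21, against a median of -0.06.

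Nucleotide and transport genes bear on how the drug enters and is activated. Of 39 nucleotide synthesis genes 5 rose and 4 fell with a median of -0.052, against 2 and 7 with the GC trend removed. DCK, the kinase that phosphorylates deoxycytidine and its analogues, went from 20.4, 19 and 17.1 CPM to 26.1, 25.1 and 23.1 CPM (log2 fold change 0.40, adjusted p = 0.0272 in edgeR's test). The nucleoside transporters SLC29A1 and SLC29A2 and the thymidine kinase TK1 rose by 0.27, 0.48 and 0.24, calls that were lost with the GC trend removed, the dehydrogenase IMPDH1 by 0.23, and DHODH, UMPS, PAICS and TYMS fell by 0.37, 0.23, 0.23 and 0.19. CDA, which inactivates cytidine analogues, had a log2 fold change of 0.22 (adjusted p = 0.667). Of 204 solute carrier genes 34 rose and 9 fell, against 29 and 16 with the GC trend removed, and the median was 0.10. The sodium-proton exchanger SLC9A5 rose from 12.8, 11.8 and 10.2 CPM to 29.1, 24.8 and 28.1 CPM, and SLC12A3, the thiazide-sensitive cotransporter of the kidney, had 0 counts in Con and 0.801, 0.902 and 1.35 CPM after priming. Of 61 drug metabolism and efflux genes 8 rose and 4 fell, against 8 and 7 with the GC trend removed. Their median was 0.15. The sterol transporter ABCG4 rose from 2.37, 2.29 and 1.51 CPM to 6.73, 7.16 and 5.59 CPM, the retinaldehyde dehydrogenase ALDH1A3 by 0.47 and ALDH3A2 by 0.31, and the 4 lower genes were CYP4X1, ABCC4, ABCB10 and ALDH1A1.

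Signalling genes were among the lists with the most rises. Of 30 AP-1, EGR and KLF factors, the immediate early genes that follow growth factor and stress signals, 11 rose (36.7%, against 9.95% of all genes) and 2 fell, with a median of 0.32. The median GC content of this list was 56.9%. With the GC trend removed 9 rose and 2 fell, and the median was 0.17. EGR1 rose from 9.04, 12.4 and 11.1 CPM to 23.7, 21.9 and 29.8 CPM (log2 fold change 1.21, adjusted p = 6.31e-07 in edgeR's test), IER3 from 5.78, 4.43 and 4.47 CPM to 12, 14.1 and 13.8 CPM, JUN from 44.4, 58.0 and 51.0 CPM to 82.5, 75.8 and 86.2 CPM, and IER5 by 0.75 on the log2 scale. KLF6 and FOSL2 fell by 0.23 and 0.29, and FOS had a log2 fold change of 0.32 (adjusted p = 0.433). Of the feedback inhibitors and target genes of MAP kinase signalling 11 of 23 were higher and 1, EPHA4, was lower, with a median of 0.28. ETV4, an ETS factor induced by the pathway, rose from 45.4, 42.2 and 42.3 CPM to 82.8, 71.1 and 84.3 CPM, and ETV5 and SPRY4 by 0.47 and 0.37 on the log2 scale. EPHA2 of this list was no longer called with the GC trend removed.

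Secreted factors and their receptors were rearranged within families. Of 22 tested chemokine and inflammatory genes 7 rose and 2 fell with a median of 0.54. LIF, a cytokine of the IL-6 family, rose from 20.7, 21.5 and 22.2 CPM to 50, 40.9 and 39.5 CPM, NFKB2 from 26.6, 25.5 and 22.7 CPM to 42.9, 37.8 and 46.7 CPM, and the neutrophil chemokine CXCL1 by 0.65 on the log2 scale, while the macrophage factor CSF1 and the inhibitor NFKBIA fell by 0.43 and 0.31. CX3CL1, a membrane-tethered chemokine, had 0 counts in Con and 0.588, 0.801 and 0.96 CPM after priming. Of 45 TGF-beta and BMP genes 15 rose and 5 fell, against 12 and 8 with the GC trend removed, and the median was 0.14. The latent TGF-beta binding proteins LTBP2 and LTBP4 rose by 1.04 and 1.23 on the log2 scale and the BMP antagonist NOG by 1.12. The 5 lower genes were the co-receptor TGFBR3 at -0.61, the decoy receptor BAMBI at -0.58, BMPR2 at -0.35, ID2 at -0.34 and BMPR1A at -0.28. Of 39 WNT genes 10 rose and 2 fell, with a median of 0.16. SFRP1 led, the receptor FZD9 had 0 counts in Con and 0.214, 0.451 and 1.35 CPM after priming, the DKK receptor KREMEN1 rose by 0.51, and ROR1, a receptor of non-canonical WNT ligands, fell from 51.3, 42.7 and 44.7 CPM to 30, 29.9 and 27.2 CPM.

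Of 26 Notch genes 8 rose and 5 fell, with a median of 0.13, against 7 and 6 and a median of 0.018 with the GC trend removed. NOTCH3 rose from 46.3, 48.4 and 51.1 CPM to 80.9, 78.5 and 96.6 CPM (adjusted p = 9.01e-07 in edgeR's test), and HES2 and HES6 by 1.13 and 0.83 on the log2 scale, while NOTCH1, NUMB, RBPJ and the ligand JAG1 fell by 0.27, 0.26, 0.29 and 0.30 and HEY1, a target gene, had -1.05 (adjusted p = 0.0492). Of 35 FGF, EGF and PDGF family genes 10 rose and 3 fell, against 7 and 5 with the GC trend removed. Their median was 0.21. The receptor FGFR1 rose from 34.8, 37.6 and 36.2 CPM to 60.9, 52.7 and 58.9 CPM and FGFR4 from 9.04, 12.7 and 8.36 CPM to 18.5, 18.8 and 19.4 CPM, IGFBP4 by 0.38 on the log2 scale, while EGFR fell from 240, 226 and 239 CPM to 184, 167 and 185 CPM and PDGFC and EREG by 0.27 and 0.36. Of 23 semaphorin, plexin and neuropilin genes 10 rose and 3 fell, with members of the secreted class 3 on both sides. The lower genes were SEMA3A, SEMA3C and SEMA3D, SEMA3A falling from 498, 425 and 483 CPM to 291, 326 and 286 CPM and SEMA3C by 0.47 on the log2 scale. SEMA6B rose from 140, 167 and 151 CPM to 247, 208 and 273 CPM and the receptor PLXNA1 and the class 3 ligand SEMA3F by 0.41 and 1.09. The list's median of 0.20 became 0.023 with the GC trend removed. Of 17 ephrin and Eph genes, with a median of 0.14, 3 rose and 2 fell, against 2 and 4 with the GC trend removed. The ligand EFNB1 rose from 12.1, 12.8 and 11 CPM to 23.1, 22.3 and 21.3 CPM and EPHB3 by 1.10, and EPHA4 and EPHA7 fell by 0.69 and 0.93.

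Calls among matrix and cell surface genes were mostly rises, though most members of several lists were not called. Of 26 tested matrix proteases and inhibitors 13 were higher and 0 lower, with a median of 0.57, and 14 were higher and 0 lower in CPT+GTA+5-Aza against CPT. The urokinase receptor PLAUR rose from 8.2, 7.82 and 8.85 CPM to 19.3, 17.1 and 20.7 CPM (log2 fold change 1.20, adjusted p = 1.18e-06 in edgeR's test), its ligand PLAU from 95.1, 99.3 and 101 CPM to 134, 135 and 143 CPM, and the serpin SERPINB1 by 0.62. In both the receptor and its ligand the lowest primed library lay above the highest Con library. Of 24 collagen genes 9 rose and 1, COL5A2, fell by 0.27, with a median of 0.31. COL13A1 rose from 31.1, 34.9 and 33.5 CPM to 63.5, 55.5 and 68.9 CPM and COL1A1 from 0.21, 0.0477 and 0.146 CPM to 1.71, 2.2 and 1.19 CPM. Of 24 integrin and laminin genes 6 rose and 1, LAMA2, fell by 0.37, with a median of 0.17. The fibronectin receptor subunit ITGA5 rose from 35.4, 44.1 and 41.5 CPM to 71.4, 54.9 and 68.6 CPM and the laminin chain LAMB1 by 0.76. Of 19 claudin and tight junction genes, with a median of 0.21, 4 rose, cingulin (CGN), and CLDN4, JAM3 and CLDN11 by 0.40, 0.28 and 0.20, and CLDN4 was not called with the GC trend removed. Of 10 S100 genes, with a median of 0.45, 3 rose, S100A2 from 2.31, 2.48 and 3.26 CPM to 6.73, 5.86 and 6.55 CPM, S100A6 by 0.33 and S100A3 by 1.46, and the calls of S100A6 and S100A3 were lost with the GC trend removed.

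The calls among tested ion channel genes were rises, and most members were not called. Of 135 potassium, sodium and calcium channel genes 48 were tested, 13 rose (27.1%) and 0 fell, with a median of 0.47, against 17 and 1 in CPT+GTA+5-Aza against CPT. Falls were rare among all protein-coding genes of low level, at 0.649% under 1 CPM, 1.2% at 1 to 4 CPM and 2.39% at 4 to 16 CPM. The medians of these level classes were 0.40, 0.29 and 0.12. CACNG6 rose from 13.6, 15.7 and 15.1 CPM to 37.7, 41.7 and 38.1 CPM, the calcium channel subunit CACNB3 from 12, 13.2 and 13 CPM to 23.4, 22.6 and 27.9 CPM, and the calcium-activated potassium channel KCNN4 from 31.7, 40.4 and 38.1 CPM to 54.4, 57.6 and 62.7 CPM (adjusted p = 6.51e-05 in edgeR's test). Of 33 neurotransmitter receptor genes 7 rose and 1 fell, against 5 and 4 with the GC trend removed, and the median was -0.014. The muscarinic receptor CHRM4 and the NMDA receptor subunit GRIN2D rose by 0.97 and 1.29 on the log2 scale, and HTR1B had 0 counts in Con and 0.641, 0.301 and 0.395 CPM after priming.

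The Vitamin D receptor list was examined because the study primed cells for a Vitamin D response. VDR had 1.53, 1.62 and 1.46 CPM in Con and 1.55, 2.65 and 2.43 CPM after priming, a log2 fold change of 0.53 (SE 0.36, adjusted p = 0.361 in edgeR's test), and the groups overlap in range at 1.55 CPM. At these counts a change of this size was not separable from the spread between libraries. The study itself reported higher VDR mRNA by qRT-PCR and higher VDR protein by immunoblot with both agents together, measures that these libraries do not hold. CYP24A1, the Vitamin D-degrading enzyme and classical target, had 0 counts in all 6 libraries, which allows up to 3 counts in each. Of 13 tested members 1 was higher and 3 were lower, with a median of 0.02. The partner RXRB rose by 0.30, a call lost with the GC trend removed, and the coactivators NCOA3 and MED1 fell by 0.25 and 0.20, falls that were not called under library-size scaling.

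Gene classes taken from the annotation showed where the calls lay. Among 12369 protein-coding genes 12.3% were higher and 9.42% lower, among 2841 lncRNA genes 4.54% and 2.36%, among 1145 pseudogenes 1.57% and 2.45%, and 0 of 48 snoRNA genes passed. Protein-coding genes with under 1 CPM had 9.73% higher, 0.649% lower and a median of 0.40, those between 16 and 64 CPM 12.5%, 7.17% and 0.01, and the most abundant of 6 level classes 6.48%, 28.5% and -0.082. Rises were spread over all levels, and falls gathered at high counts. The median fold change also declined over the 6 level classes, and the part of test power in these shares was not tested. Gene length divided the calls as well. In the shortest quintile, under 10500 bases, 15.8% were higher and 4.81% lower, and in the longest quintile, over 92400 bases, 7.07% were higher and 17.0% lower. Of the 92 protein-coding genes that fell beyond 1.5-fold, 52 lay in the longest quintile, RPTOR, HDAC4, PRDM16, MAD1L1, CUX1, DOCK1 and INPP5A among them. With the GC trend removed the longest quintile still had 18.2% lower against 9.18% in the shortest.

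Shares also differed between chromosomes and promoter classes. Chromosomes 20 and 19 and the X chromosome had 17.6%, 17.1% and 17.2% of their protein-coding genes higher, against 3.5% on chromosome 13 and 4.91% on chromosome 18. Chromosome 19 had a median transcript GC of 58.8%, and its share of higher genes was 12.1% with the GC trend removed. The X chromosome kept 16.2% and chromosome 20 kept 15.6%. Genes within 2 Mb of a chromosome end had 11.3% higher and 9.71% lower, against 12.5% and 9.43% of genes over 10 Mb away, and falls beyond 1.5-fold were 1.88% against 0.563%. With the GC trend removed the shares were 6.47% higher and 22.1% lower under 2 Mb and 12.4% and 10.5% over 10 Mb. By the observed-to-expected CpG ratio of the promoter, 12.6% of genes under 0.4 were higher and 5.67% lower, 15% and 6.43% between 0.4 and 0.6, 14.4% and 8.81% between 0.6 and 0.8, and 10.3% and 11.2% at 0.8 and over. These classes differed in level too, with a median of 6.51 CPM under 0.4 and 40.8 CPM at 0.8 and over, and the part of level in the shares was not tested.

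GC content of the transcripts moved with the fold changes. The median GC was 56.4% among higher genes, 43.6% among lower genes and 48.4% among all tested genes. In the quintile of protein-coding genes with the lowest GC 4.69% were higher and 15.2% lower, and in the quintile with the highest GC 24.8% were higher and 3.31% lower. Across 16472 genes, which are not independent, the Spearman correlation of fold change and GC was 0.258, and it was 0.399 over 6176 genes above 32 CPM. The libraries differed in the same property within groups. The correlation of a library's deviation from the mean with GC was -0.53, 0.088 and -0.431 in the Con libraries and 0.302, -0.164 and 0.67 in the primed libraries, so the second library of each group lay between the groups' others. When each library's trend was removed, the calls were 1590 higher and 1687 lower, and higher genes made up 8.69% of the lowest and 14.8% of the highest quintile. The part of GC-dependent library preparation in the result was not tested.

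**Figure D4:**
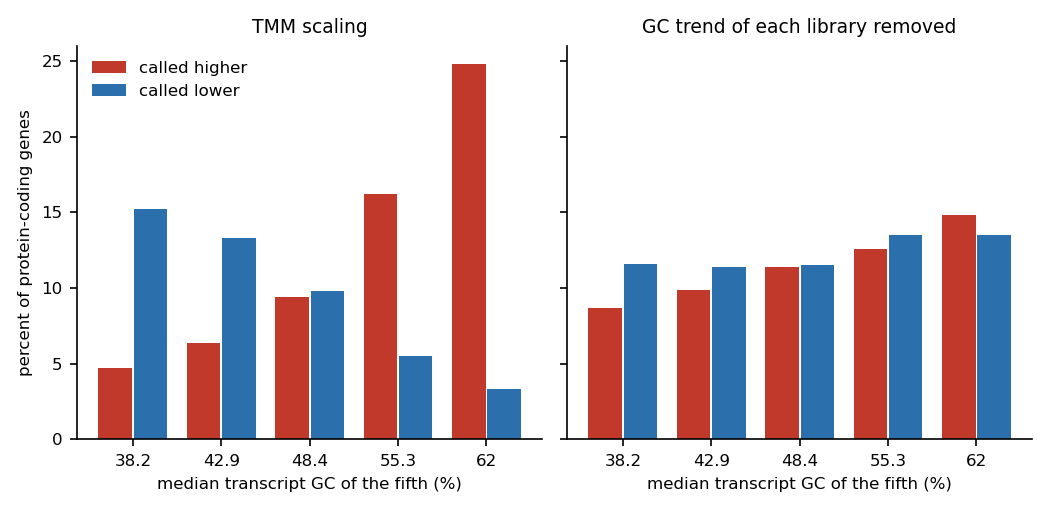
Percent of protein-coding genes called higher (red) and lower (blue) in GTA+5-Aza against Con, in quintiles of transcript GC content given by their median, with TMM scaling (left) and after removal of each library's GC trend (right). On the left the higher genes run from 4.69% to 24.8% and the lower genes from 15.2% to 3.31%, and on the right both stay between 8.69% and 14.8%.

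The same priming was measured again in CPT-treated cells, as a contrast of 6 other libraries that shared the filter and the estimate of spread of the 12-library model with the comparison above. In CPT+GTA+5-Aza against CPT, 1639 genes (9.57%) were higher and 1265 (7.39%) were lower. Of the 1703 genes higher without CPT, 1153 (67.7%) were called higher with CPT and 1682 (98.8%) had the same sign. Of the 1290 lower genes, 847 (65.7%) were called lower and 1268 (98.3%) had the same sign. The share with the same sign over all tested genes is not given here. Seen from the other side, 70.3% of the 1639 higher and 67.0% of the 1265 lower genes with CPT were called the same way without it. Among the changes above 1.5-fold, 620 of the 861 rises (72.0%) and 78 of the 150 falls (52.0%) were called again. The genes at the top had close values in both settings. The log2 fold changes with CPT were -1.32 for RPTOR, -1.03 for POLR1F, -1.21 for HDAC4, -1.46 for PRDM16, 0.83 for PTX3, 2.21 for DHRS2 and 0.95 for COL6A3. SVIP had 7.71, 5.51 and 6.49 CPM in the CPT+GTA+5-Aza libraries and 0, 0.0492 and 0 CPM in the CPT libraries. Some rises from very low levels were not called with CPT, among them CX3CL1 (adjusted p = 0.607) and DAZL (adjusted p = 0.0634 in edgeR's test), and HSPA6 had the opposite sign there at -2.05 (adjusted p = 0.138). A direct test of priming by CPT interaction in the same edgeR model called 0 genes at an adjusted p under 0.05, with 451 at an unadjusted p under 0.05, so a change missing in 1 setting is not shown to differ from the other.

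**Figure D5:**
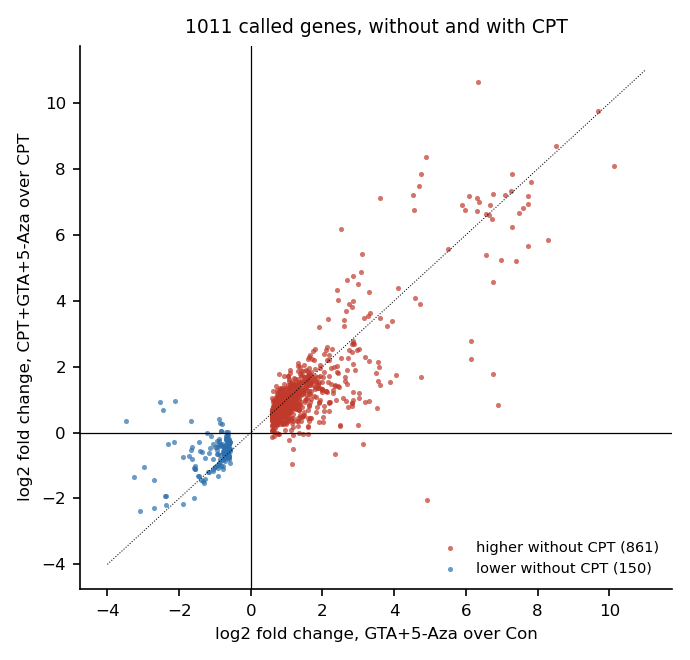
Log2 fold change of GTA+5-Aza over Con (horizontal axis) against that of CPT+GTA+5-Aza over CPT (vertical axis) for the 861 higher (red) and 150 lower (blue) genes called above 1.5-fold without CPT, with a dotted line of equal change. Of the higher genes 847 (98.4%) and of the lower genes 138 (92.0%) had the same sign in both, and the points farthest from the line are genes with few or no counts in the unprimed libraries.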

How the data were processed

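RNA-seq was analysed in 12 MiaPaca2 libraries, which the labels divide into 4 groups of 3 by priming and by CPT. The authors deposited raw HTSeq counts for 63677 gene identifiers, made after trimming (Trim Galore) and alignment by HISAT2 2.2.1 to the GRCh38 build. The annotation release, strand setting and RNA selection are not given in the sources used here. Coordinates, GC content and classes came from GENCODE v44, which held 52181 of the identifiers and 99.047% of the counts, and promoters from RefSeq. Totals ran from 16162490 to 21224665 counts, and replicate libraries differed beyond counting error.

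Genes were tested with edgeR 4.0.16 (R 4.3.3) by its quasi-likelihood F-test, with TMM scaling, filterByExpr, all 12 libraries in 1 model and Benjamini-Hochberg adjustment over 17123 genes. The steps were tested on simulated data. Members, lists and tests were chosen with earlier results of these data known. Named genes were the 12 higher and 12 lower genes with the smallest p among called genes above 1.5-fold without overlap, the 6 with the highest mean CPM in each direction, genes turned on, up to 4 called members of each list by smallest p, and list-defining members. Further members were named after their values were seen, mostly where a count was 5 or fewer. Alternatives were upper-quartile and library-size scaling, other filters, the 6 libraries alone, a likelihood ratio test, glmTreat, a replicate block, removal of each library's GC trend, DESeq2 1.42.0 and leaving out each library. Values of some called genes are not reported here.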

Additional observations from a re-analysis of the deposited data

How the results depend on the processing

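The counts of 1703 higher and 1290 lower genes, and of 861 and 150 above 1.5-fold, stayed within 1.5 times under both other scalings, both other filters, the fit of 6 libraries, the likelihood ratio test, the GC correction and DESeq2. A test against a 1.5-fold change (glmTreat) left 203 higher and 13 lower genes, by either rule, and 137 genes shared with the CPT contrast in place of 2000, since it asks for a change reliably above that fold. Leaving out 1 library gave 1100 to 1556 higher, 807 to 1172 lower, 661 to 845 higher above 1.5-fold and 106 to 144 lower above 1.5-fold. Without GTA+5-Aza replicate 3 there were 1100 higher and 807 lower genes, without Con replicate 3 there were 813 lower genes and without GTA+5-Aza replicate 1 there were 820 lower genes, each more than 1.5 times fewer. Removing the GC trend gave 1590 higher and 1687 lower genes, and library-size scaling 2013 and 908. No pairing by replicate number was seen. Same-numbered Con and GTA+5-Aza libraries deviated from their group means with correlations of -0.064, -0.432 and -0.198 over 6241 genes. No library of either group correlated best with its own number. These levels kept the GC trend of each library, so the correlations cannot decide whether the replicates were paired. With the replicate block 1660 genes were higher and 1228 lower, and with block and GC correction together 1570 and 1659. Of 262 named genes, which include genes that were not called, 73 stayed called or stayed uncalled under every alternative that tested them. None changed sign under these settings while called, and 13 called genes lost their call with the GC trend removed. The larger side of a gene list turned in 2 of 58 lists with unequal counts under library-size scaling (DNA repair and Vitamin D genes), in 2 with the GC trend removed (nucleotide synthesis and Eph genes), in 5 with block and GC correction together (these 2, keratins, cyclin and CDK inhibitor genes, and zinc finger genes off chromosome 19), in 2 at a mean count over 50 (keratins, cyclin and CDK inhibitor genes), in 1 under DESeq2 (nucleotide synthesis), in 3 under glmTreat and in up to 2 when 1 library was left out. The depth limits the genes that came up from 0 counts, many of which stayed under 1 CPM after priming and rest on few reads.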
